A study of Mus musculus with 4 samples.

Results

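Keratin genes were compared between miR-21-/- and miR-21+/+ mice in RNA of the mammary gland. Keratins were taken as every gene name made of Krt and digits in the deposited expression table, and each name was given the row with the highest mean of both genotypes. This gave 47 keratin names of 22479 gene names in all. They stood in 45 rows of the table, because the row of Krt14 also holds Krt16 and because Krt82 and Krt85 share a row with Krt6a. Reads of genes in a merged row are not separated. No keratin name had more than 1 row, so the choice of the highest row changed nothing. Krt6a and other names with a letter suffix were not counted as members.

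The tissue came from 4 mice, 2 miR-21+/+ (WT) and 2 miR-21-/- (KO), all labelled as 2 months old and of the mixed strain 129SV::FVB/N::C57BL/6. The KO mice lack the microRNA miR-21, and the labels limit the deletion to no cell type, so any cell of the gland could differ. Poly(A) RNA of whole tissue was sequenced. Levels are FPKM, fragment counts scaled to exon length and to the mapped total. Each genotype has 1 value in the table, made from both of its mice. How far single mice differed cannot be seen, so no difference below has a replicate check and none was tested. Library depth is unknown. Differences are plain log2 ratios of the FPKM values, KO over WT.

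Keratins are the intermediate filament proteins of epithelia. A type I (acidic) and a type II (basic) keratin pair to build each filament, and the pair in use marks the kind of epithelium. Simple epithelia use KRT8 with KRT18 or KRT19, and KRT7 is common in ducts. Basal cells of stratified epithelia use KRT5 with KRT14, and differentiating epidermal cells exchange these for KRT1 with KRT10. In the mammary gland, luminal cells that line the ducts carry simple keratins, and the myoepithelial cells around them carry KRT5, KRT14 and KRT17. Hair keratins build the shaft and root sheath of the hair follicle and are not known as products of mammary ducts.

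Simple and basal keratins had higher values in KO than in WT tissue as deposited. Most of them were lower, like most named rows, when both columns were scaled to equal sums over all loci. Krt10 and Krt77, keratins of differentiated epidermis, had lower values as deposited. The scalings tried shift every log2 ratio by -0.63, 0.10 or 0.03, too little upward to reverse these rows. Of the 45 rows, 15 had a mean of at least 1 FPKM over both genotypes, and these are the rows described as expressed. Among them, 11 were higher and 4 lower in KO tissue, with a median log2 ratio of 0.50. The median of all 13305 named rows above the same limit was -0.03. At 1.5-fold or more, 4 of the 15 keratin rows were higher, against 5.04% of all named rows, and 2 were lower, against 5.84%. At a log2 ratio of 0.32 or more in size these were 8 keratin rows higher, against 10.6% of named rows, and 4 lower, against 13.7%. At 2-fold a single row, Krt23, was higher, against 1.72%, and the rows of Krt10 and Krt77 were lower, against 2.16%. Krt77, at 2.63 FPKM in WT and 0.0873 FPKM in KO tissue, reached the limit only through its WT value. Its place among the lower rows at each fold is therefore no support for a difference. These shares place the keratins beside other genes of the same comparison and are no test.

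The direction depends on how the columns are scaled. Loci without a gene name held 49.9% of the FPKM sum in WT and 69.8% in KO tissue. Scaling both columns to equal sums over all loci therefore lowers every log2 ratio by 0.63. Under that scaling 8 of the 11 higher keratin rows turned lower, while Krt8, Krt23 and the row of Krt14 and Krt16 stayed higher. Of all named rows at most 4.56% were higher under it, the share with a deposited ratio above that of Krt7, which turned lower. Turning lower is therefore no trait of keratins. All 4 lower rows stayed lower, as a downward shift cannot raise a row. Under that scaling 64.7% of named rows were lower in KO tissue by 1.5-fold or more. Scaling to equal sums over named loci, or to a median ratio of 1, changed no keratin's direction. Ratios between keratins within a genotype do not depend on scaling and are given below for this reason.

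**Figure D1:**
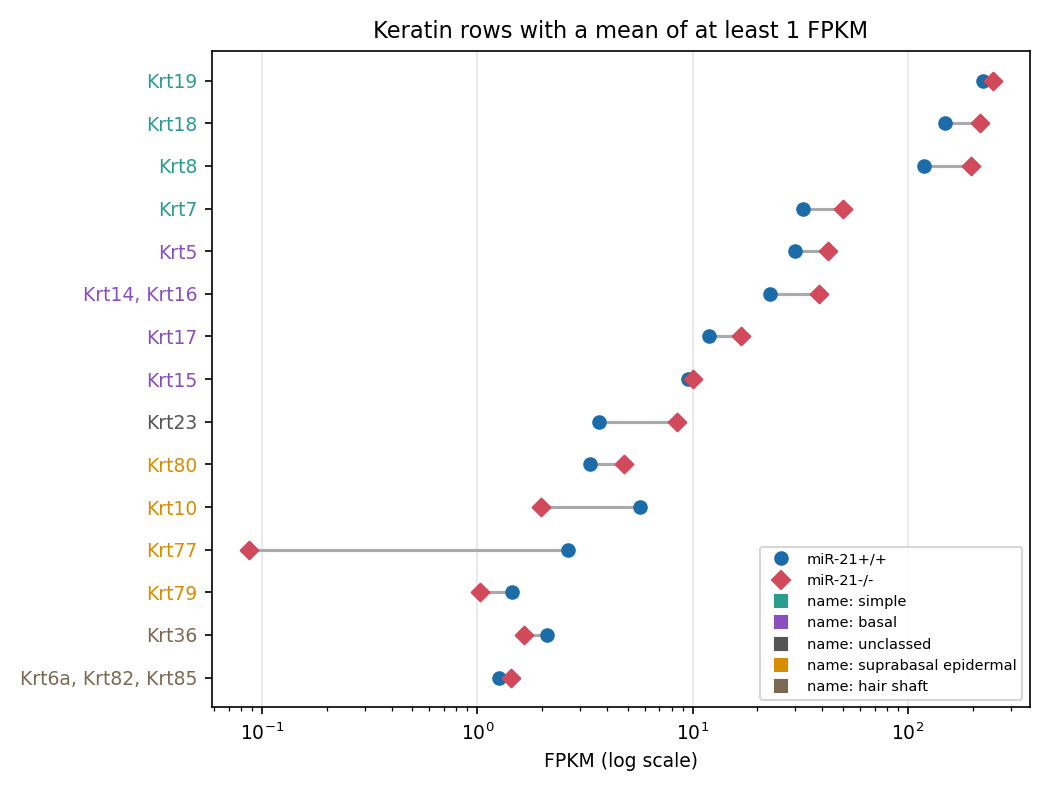
FPKM (log axis) of the 15 keratin rows with a mean of at least 1 FPKM, with WT as circles and KO as diamonds, each the authors' value for 2 mice combined. The colour of a name gives its class. Krt19 lies highest at 223 and 247 FPKM, and the longest line is that of Krt77, from 2.63 FPKM in WT to 0.0873 FPKM in KO tissue.

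The simple keratins were the most abundant class, with 84.3% of the summed keratin FPKM in WT and 84.5% in KO tissue. Krt19, a small type I keratin of ductal epithelium, had the highest level, 223 FPKM in WT and 247 FPKM in KO tissue. Its mean exceeded that of 98.4% of named rows. Krt18, the type I partner of Krt8, stood at 148 FPKM in WT and 216 FPKM in KO tissue, a log2 ratio of 0.55. Krt8, the type II partner, stood at 119 FPKM in WT and 197 FPKM in KO tissue, a log2 ratio of 0.72. A ratio as high as that of Krt8 was exceeded by 3.49% of the named rows. Krt7, a type II keratin of ducts, was at 32.5 FPKM in WT and 50.02 FPKM in KO tissue, with a log2 ratio of 0.62. With both columns scaled to equal sums over all loci, Krt7 and Krt18 stood at -0.0073 and -0.084 and Krt8 at 0.093. Krt20, a keratin of gut and urinary epithelium, was low, at 0.511 FPKM in WT and 0.765 FPKM in KO tissue.

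Krt19 had the lowest ratio of the expressed simple keratins. Its log2 ratio was 0.15 as deposited and -0.49 with equal sums over all loci, and Krt18, Krt7 and Krt8 stood at 0.55 to 0.72 as deposited. The ratio of Krt19 to Krt8 was accordingly 1.88 in WT and 1.26 in KO tissue, and that of Krt19 to Krt18 was 1.51 in WT and 1.14 in KO tissue. The Krt8 to Krt18 ratio differed less, 0.803 in WT and 0.909 in KO tissue, as did that of Krt7 to Krt8, at 0.273 in WT and 0.254 in KO tissue. In both genotypes the order was Krt19, Krt18, Krt8, Krt7. Whether neighbours in that order differ beyond the spread between mice cannot be seen in combined values.

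Basal keratins held 11.9% of the summed keratin FPKM in WT and 12.9% in KO tissue. Krt5, the type II keratin of basal and myoepithelial cells, was at 29.8 FPKM in WT and 42.7 FPKM in KO tissue, a log2 ratio of 0.52. The row of Krt14, its type I partner, and Krt16, a keratin of stressed epidermis, was at 22.9 FPKM in WT and 38.7 FPKM in KO tissue, a log2 ratio of 0.76. How much of this value is Krt14 and how much Krt16 cannot be told apart. Krt17, found in myoepithelial cells and in the outer root sheath of hair, was at 11.9 FPKM in WT and 16.8 FPKM in KO tissue, with a log2 ratio of 0.50. Krt15, a basal keratin of skin and hair follicle, was nearly level, at 9.53 FPKM in WT and 10.0 FPKM in KO tissue, with a log2 ratio of 0.08. The ratio of Krt15 to the Krt14 row was 0.416 in WT and 0.260 in KO tissue. With both columns scaled to equal sums over all loci, Krt5, Krt17 and Krt15 turned lower in KO tissue and the Krt14 row stayed higher, at 0.13.

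Simple and basal keratins were set against each other. The median log2 ratio was 0.58 over the 4 expressed simple keratin rows and 0.51 over the 4 basal rows, a difference of 0.07. This difference does not depend on the scaling, but its sign depends on the members, since with Krt5 and the Krt14 row as the basal keratins it was -0.055. As FPKM sums, the simple keratins stood at 524 in WT and 711 in KO tissue and the basal keratins at 74.1 in WT and 108 in KO tissue. Their ratio was 7.07 in WT and 6.57 in KO tissue. For the leading pairs alone, Krt8 and Krt18 over Krt5 and the Krt14 row, it was 5.08 in WT and 5.07 in KO tissue. In RNA of a whole tissue, more cells of a type and more RNA per cell cannot be told apart.

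The type I to type II ratio was lower in KO tissue. Summed over all rows of either type, type I keratins were at 428 FPKM in WT and 543 FPKM in KO tissue, and type II keratins at 192 FPKM in WT and 298 FPKM in KO tissue. It was 2.23 in WT and 1.82 in KO tissue. Krt19 was the largest part of the type I sum in both genotypes.

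**Figure D2:**
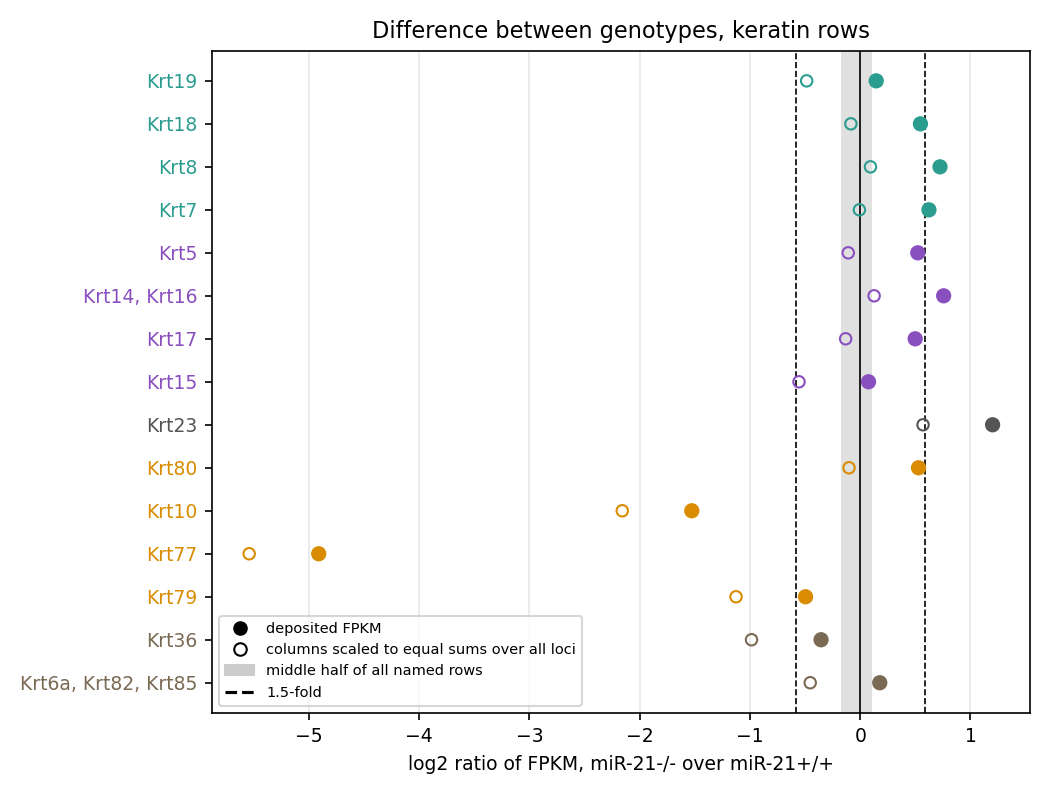
Log2 ratio of FPKM, KO over WT, for the 15 expressed keratin rows. Filled points use the deposited values, open points the values after scaling to equal sums over all loci, dashed lines mark 1.5-fold, and the grey band runs from the lower to the upper quartile of all named rows, -0.17 to 0.11. Filled points of all rows but Krt15 lie outside the band, and 8 of the 11 higher rows cross to below 0 as open points. At most 4.56% of all named rows are above 0 under that scaling.

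Of the 15 expressed rows, Krt23 had the largest ratio toward KO tissue. Krt23, a type I keratin, was at 3.68 FPKM in WT and 8.46 FPKM in KO tissue. Its log2 ratio was 1.20, exceeded by 1.06% of named rows, and it stayed higher, at 0.57, after scaling to equal sums over all loci. Krt80, a type II keratin of many epithelia that is placed here with the suprabasal keratins, was at 3.33 FPKM in WT and 4.81 FPKM in KO tissue, with a log2 ratio of 0.53. After that scaling it was at -0.10. Krt222, a keratin-like gene, was at 0.988 FPKM in WT and 0.818 FPKM in KO tissue.

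Of the 4 expressed suprabasal keratins, 3 were lower in KO tissue as deposited, and Krt80 was the other. No scaling tried shifts a log2 ratio up by more than 0.10, so the 3 stay lower under each. Krt10, the type I keratin of suprabasal epidermal cells, was at 5.70 FPKM in WT and 1.98 FPKM in KO tissue, a log2 ratio of -1.53. Only 1.05% of named rows had a lower ratio. Krt77, a type II keratin of the epidermis and sweat gland ducts, was at 2.63 FPKM in WT and 0.0873 FPKM in KO tissue. Its log2 ratio was -4.91, and 0.0150% of named rows had a lower one, but it was -1.74 with a pseudocount of 1, since the KO value is near 0. The row of Krt77 reached a mean of 1 FPKM only through its WT value. Krt79, a type II keratin of skin glands and follicle openings, was at 1.45 FPKM in WT and 1.03 FPKM in KO tissue, with a log2 ratio of -0.50. Krt1, Krt2, Krt9 and Krt78, the last of which, with Krt2 and Krt9, is named after their values were seen, lay below 1 FPKM in both genotypes. Krt1, the type II partner of Krt10, was at 0.653 FPKM in WT and 0.0688 FPKM in KO tissue. Krt78, another type II keratin, was at 0.488 FPKM in WT and 0.166 FPKM in KO tissue. Krt9, the keratin of palm and sole, was at 0.0073 FPKM in WT and 0.0504 FPKM in KO tissue, and Krt2, of late epidermal differentiation, was listed at 0 in both.

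The difference was larger when set against the basal keratins, and free of scaling. The summed FPKM of Krt1, Krt10 and Krt77 over that of the basal keratins was 0.121 in WT and 0.0197 in KO tissue. The ratio of Krt10 to the Krt14 row was 0.249 in WT and 0.0511 in KO tissue. The suprabasal class as a whole held 2.29% of the keratin sum in WT and 0.973% in KO tissue.

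Promoter sequences are shown for 7 keratins, to show what lies before their starts. As deposited, Krt8, Krt18, Krt7, Krt5 and the row of Krt14 were higher in KO tissue, and Krt10 and Krt77 were lower. Sequences are those of RefSeq in GRCm38.p6, a later build than mm9, and entries were found for 33 of the 47 keratins. Each gives the 100 bases before the start, 5′ to 3′ on the coding strand, and capitals mark TATAA or ATAAA, forms of the TATA box. They are at chr15:102004343-102004442 (minus strand) for Krt8, chr15:102028116-102028215 (plus) for Krt18, chr15:101412303-101412402 (plus) for Krt7, chr15:101712906-101713005 (minus) for Krt5, chr11:100206031-100206130 (minus) for Krt14, chr11:99389365-99389464 (minus) for Krt10 and chr15:101869706-101869805 (minus) for Krt77.
Krt8: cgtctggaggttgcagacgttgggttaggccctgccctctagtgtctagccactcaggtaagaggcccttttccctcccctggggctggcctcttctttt
Krt18: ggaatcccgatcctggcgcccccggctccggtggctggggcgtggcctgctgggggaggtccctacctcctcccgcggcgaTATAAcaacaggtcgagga
Krt7: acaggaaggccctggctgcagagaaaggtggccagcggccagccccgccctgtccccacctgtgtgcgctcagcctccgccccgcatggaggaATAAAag
Krt5: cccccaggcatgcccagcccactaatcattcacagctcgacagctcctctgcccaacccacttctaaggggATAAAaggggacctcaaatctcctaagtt
Krt14: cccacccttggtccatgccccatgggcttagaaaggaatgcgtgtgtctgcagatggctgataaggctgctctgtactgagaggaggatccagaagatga
Krt10: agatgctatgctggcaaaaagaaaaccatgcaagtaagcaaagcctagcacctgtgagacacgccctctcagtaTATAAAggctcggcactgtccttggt
Krt77: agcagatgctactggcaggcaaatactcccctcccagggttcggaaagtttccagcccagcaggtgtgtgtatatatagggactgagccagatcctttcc

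Krt5 had ATAAA 29 bases before its start and Krt10 had TATAAA, which holds both forms, starting 26 bases before it. Krt18 had TATAA 19 bases and Krt7 ATAAA 7 bases before the start. Krt8, Krt14 and Krt77 held neither in these 100 bases. Krt77 did hold tatatata, which was not among the forms searched, and whether it serves as a TATA box was not tested. Between 40 and 21 bases before the start, TATAA or ATAAA stood in 24 of 34 promoters of the 33 keratins, or 70.6%, and in 5.20% of all 32851 promoters. Keratin genes descend from common ancestors, so their promoters are not independent. TTCNNNGAA, the motif that STAT factors bind, was searched on both strands of the 300 bases from 250 before to 50 after the start, because the study concerns STAT5. It stood in 4 of 34 keratin promoters, those of Krt24, Krt25, Krt31 and Krt42, and in 8.30% of all promoters. None of the 7 promoters shown held it. A match is a description of letters only and says nothing on binding.

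Markers of cornified epidermis also had low values. Of 10 markers listed for this tissue, 9 had a row used here, and 2 of the 9 reached a mean of 1 FPKM. Both were lower in KO tissue by 1.5-fold or more, against 5.84% of named rows. They were also lower by this fold after each scaling, but with equal sums over all loci 64.7% of named rows were. Over the 9 the summed FPKM was 11.4 in WT and 3.04 in KO tissue, and none of the 9 was at 0. The 2 were Sprr1a, a cornified envelope protein, at 4.12 FPKM in WT and 1.249 FPKM in KO tissue, and Krtdap, a protein of differentiating keratinocytes, at 2.73 FPKM in WT and 0.689 FPKM in KO tissue. Below the limit, Lor, the main protein of the cornified envelope and named after its value was seen, was at 1.16 FPKM in WT and 0.115 FPKM in KO tissue. Cdsn, a protein of corneodesmosomes, was at 0.769 FPKM in WT and 0.826 FPKM in KO tissue. The amount of skin in the tissue is not given in the sources used here, and its part in the levels of Krt10, Krt1 and Krt77 was not tested.

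Hair keratins were low in both genotypes. Of 12 rows of hair shaft keratins, 2 passed the limit. Krt36, a type I hair keratin, was at 2.11 FPKM in WT and 1.65 FPKM in KO tissue. The row of Krt82 and Krt85 was at 1.27 FPKM in WT and 1.43 FPKM in KO tissue, but Krt6a, a keratin of stressed epidermis and hair follicle, is part of it. The other 10 rows were at most at 0.339 FPKM, and 2 of them were listed at 0 in both genotypes. All 8 rows of inner root sheath and companion layer keratins lay below the limit, with a highest value of 0.332 FPKM for Krt71 in KO tissue and 2 rows at 0 in both genotypes. Mucosal and corneal keratins were as low, and Krt4, the highest, was at 0.473 FPKM in WT and 0.310 FPKM in KO tissue. Of the 6 markers fixed for hair follicle, 1 passed the limit, Msx2, a factor that is also made outside hair, at 5.43 FPKM in WT and 5.99 FPKM in KO tissue. Over the 6 the summed FPKM was 5.98 in WT and 6.56 in KO tissue, and Krtap3-1 was at 0 in both.

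Counting every row below the limit, 30 of 45 keratin rows had a mean under 1 FPKM. Of these, 5 were listed at 0 in both genotypes and 5 in a single genotype, and 21 stayed under 0.1 FPKM in both. The number of reads behind such values is unknown, so they are given as values and counted in no direction.

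Epithelial markers had higher values in KO tissue too. All 10 pan-epithelial markers were higher as deposited. None was higher after scaling to equal sums over all loci, against at most 4.56% of named rows. As deposited none was higher by 1.5-fold or more, against 5.04% of named rows, whose quartiles were -0.17 and 0.11 on the log2 scale. The deposited median log2 ratio of these markers was 0.36, and their summed FPKM was 253 in WT and 338 in KO tissue. Epcam, an epithelial adhesion protein, was at 59.0 FPKM in WT and 83.6 FPKM in KO tissue, Spint2, a protease inhibitor, at 53.8 and 76.6 FPKM, and Cldn3, a tight junction protein, at 35.1 and 43.0 FPKM. The largest ratio was that of Cldn7, another tight junction protein, at 16.3 FPKM in WT and 23.8 FPKM in KO tissue. Set against the pan-epithelial median, Krt8 was higher by 0.36 and the Krt14 row by 0.39 on the log2 scale, while Krt19 was at -0.22 and Krt15 at -0.29. The other simple and basal rows, Krt17, Krt5, Krt18 and Krt7, lay between, at 0.13, 0.16, 0.18 and 0.26. Of all expressed keratins Krt23 was furthest above, at 0.84, and Krt77 and Krt10 furthest below, at -5.28 and -1.89. This comparison is free of scaling.

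Among 10 luminal markers 8 were higher and 2 lower, and 7 were higher after scaling to equal sums over all loci. At 1.5-fold or more 7 were higher as deposited, against 5.04% of named rows. After that scaling at most 4.56% of named rows were higher, the share with a deposited ratio above that of Krt7, which turned lower. The median log2 ratio of the luminal markers was 0.87, with a summed FPKM of 206 in WT and 356 in KO tissue. The most abundant was Areg, a growth factor of ductal growth, at 44.5 FPKM in WT and 83.0 FPKM in KO tissue. Prlr, the prolactin receptor, was at 31.5 and 43.2 FPKM, and Ehf, an epithelial transcription factor, at 13.2 and 47.7 FPKM. The largest ratio was that of Pgr, the progesterone receptor, at 4.71 FPKM in WT and 23.3 FPKM in KO tissue. Foxa1 and Esr1, a transcription factor and the estrogen receptor of the same luminal cells, were the 2 lower ones, with log2 ratios of -0.35 and -0.50. All 7 myoepithelial markers were higher, and 5 of them after that scaling, with a median of 0.71 and a summed FPKM of 406 in WT and 671 in KO tissue. At 1.5-fold or more 6 were higher as deposited, against 5.04% of named rows. Acta2, smooth muscle actin, which vessels also express, was at 222 FPKM in WT and 341 FPKM in KO tissue. Tagln and Myh11, a smooth muscle actin-binding protein and myosin, were at 90.1 and 26.7 FPKM in WT and at 156 and 45.5 FPKM in KO tissue. Oxtr, the oxytocin receptor, was at 17.5 FPKM in WT and 48.7 FPKM in KO tissue. The basal keratins, with ratios from 0.08 to 0.76, lay below or among these markers, which ranged from 0.57 to 1.47.

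Marker lists of other tissues in the gland are given beside the keratins. Over 6 adipocyte markers 5 were lower and 1, Lep, higher, also after scaling to equal sums over all loci. At 1.5-fold or more 0 were lower and 1 was higher as deposited, against 5.84% and 5.04% of named rows. The adipocyte median log2 ratio was -0.44, with a summed FPKM of 10331 in WT and 7530 in KO tissue. All 5 lymphocyte markers were lower, 4 of them by 1.5-fold or more as deposited, against 5.84% of named rows. The lymphocyte median was -2.57, with sums of 97.3 FPKM in WT and 52.8 FPKM in KO tissue. Cd79a, part of the B cell receptor, shares its row with Arhgef1, and without this row the sums were 27.0 FPKM in WT and 4.46 FPKM in KO tissue. All 5 skeletal muscle markers were higher by 1.5-fold or more as deposited, against 5.04% of named rows. They were also higher after scaling to equal sums over all loci, against at most 4.56% of named rows. The muscle median was 0.93, with sums of 693 FPKM in WT and 1156 FPKM in KO tissue. Of 5 fibroblast markers 2 were higher, none after that scaling, and 3 lower. At 1.5-fold or more 0 were higher and 0 lower as deposited, against 5.04% and 5.84% of named rows. The fibroblast median was -0.13, with sums of 2957 FPKM in WT and 2734 FPKM in KO tissue. None of these genes was at 0. The part of such differences in tissue makeup in the keratin levels was not tested.

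**Figure D3:**
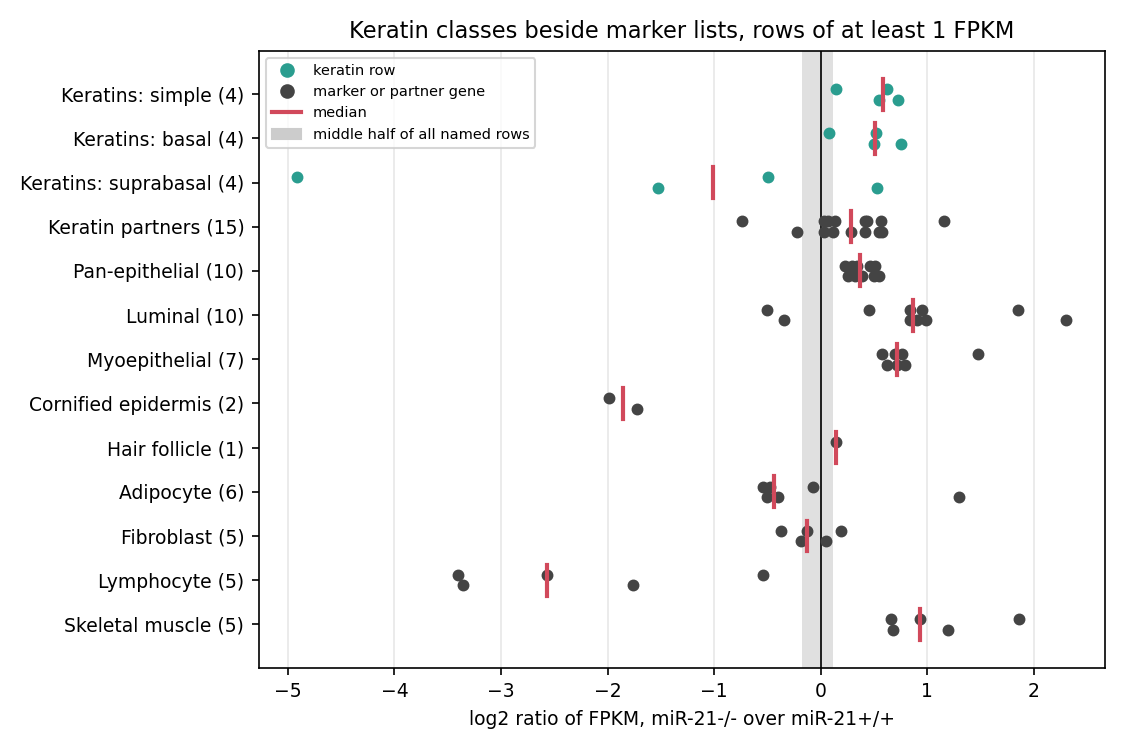
Log2 ratio of FPKM, KO over WT, for the expressed rows of 3 keratin classes and of 10 other gene lists, with the number of rows in brackets. Each point is a row, the red bar is the median, and the grey band runs from the lower to the upper quartile of all named rows. Simple and basal keratins other than Krt15 lie to the right of the band. So do the pan-epithelial and myoepithelial markers, the luminal markers other than Foxa1 and Esr1, and the skeletal muscle markers. Of the suprabasal keratins 3 of 4 lie to the left with the cornified epidermis. Scaling to equal sums over all loci moves every point left by 0.63.

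Genes whose proteins anchor or link keratin filaments were mostly higher as deposited and mostly lower after scaling to equal sums over all loci. Of 14 such genes, all above 1 FPKM, 13 were higher as deposited, 1 of them also after that scaling, and 1 was lower, with a median log2 ratio of 0.35. All named rows had a deposited median of -0.03, and at most 4.56% of them were higher after that scaling. At 1.5-fold or more Pkp2, a desmosomal plakophilin, was higher, at 5.12 FPKM in WT and 11.4 FPKM in KO tissue. Evpl, envoplakin of the cornified envelope, was lower, at 2.32 FPKM in WT and 1.39 FPKM in KO tissue. A single gene of 14 in each direction is near the 5.04% and 5.84% of all named rows. The list also held Vim, the intermediate filament of mesenchymal cells and no anchor of keratins, at 425 FPKM in WT and 365 FPKM in KO tissue. With Vim, 13 of the 15 listed genes were higher and 2 lower as deposited, with a median log2 ratio of 0.28. Jup, the plakoglobin of desmosomes, was at 31.9 FPKM in WT and 34.98 FPKM in KO tissue. The row of Eppk1, epiplakin, at 42.9 and 63.9 FPKM, also holds BC024139 and Nrbp2. The 1 gene that stayed higher under that scaling was Pkp2.

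The keratin rows fell into the known pair of gene clusters. In mm9, 24 rows lay on chromosome 11 between 99094412 and 100131185, and 21 on chromosome 15 between 101178660 and 101862457. All type I keratins but Krt18 were on chromosome 11, and Krt18 lay beside Krt8 at the end of the type II cluster. Krt8 (chr15:101827142-101834773) and Krt18 (chr15:101858647-101862457) were neighbours, with ratios of 0.72 and 0.55. Krt15 (chr11:99993073-99997263) and Krt19 (chr11:100002126-100007233) were also neighbours, and they were the basal and simple keratins of lowest ratio, 0.08 and 0.15. The Krt14 and Krt16 row (chr11:100064401-100110216) and Krt17 (chr11:100117531-100122303) lay further along, past Krt9, at 0.76 and 0.50. Krt1 (chr15:101675857-101681217) and Krt77 (chr15:101689167-101700126) were adjacent as well, and Krt10 (chr11:99246569-99251088) is on the other chromosome. Krt5 (chr15:101537501-101543322) lies between these and Krt7 (chr15:101241364-101259017).

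**Figure D4:**
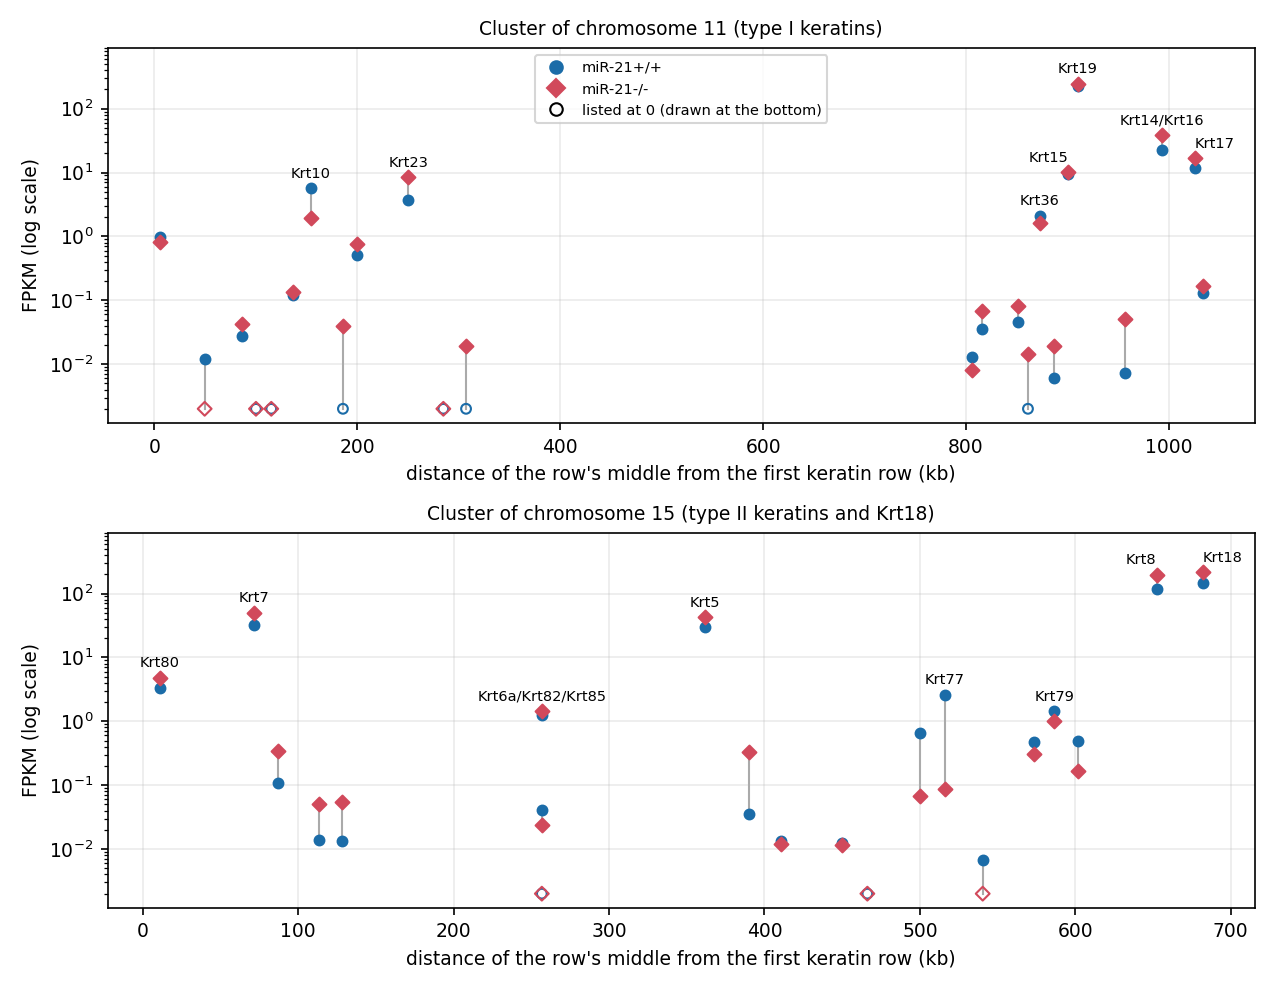
FPKM (log axis) of all 45 keratin rows along both clusters, against the distance in kb of the middle of each row from the first keratin row; WT are circles, KO diamonds, and open symbols at the bottom are rows listed at 0. Expressed rows are named. Rows above 100 FPKM, Krt19, Krt8 and Krt18, stand in clusters where 30 of 45 rows lie below a mean of 1 FPKM, and 3 rows share a position near 257 kb on chromosome 15 because the table gives them a common locus.

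Sequence likeness limits some of these values. Keratin transcripts of the GENCODE annotation of mm9 were compared by their stretches of 50 bases. Of 46 keratins with a transcript, 26 shared no such stretch with another keratin. Krt14 shared 14.4% of its stretches with other keratins, mostly Krt16, Krt16 shared 11.6%, Krt5 7.22%, mostly with Krt6a, and Krt17 3.75%. Krt7, Krt8, Krt10, Krt18, Krt19, Krt23 and Krt77 shared none. Krt81 and Krt86 shared 42.4% and 39.8% of theirs, and Krt31 and Krt34 28.1% and 33.1%, so the low values of these hair keratins are uncertain between copies.

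Since the deleted gene is a microRNA, keratin 3′ UTRs were searched for its seed match. The mature miR-21 of RefSeq (miR-21a-5p, chr11:86584120-86584141 of GRCm38.p6, minus strand) has 22 nt, and its seed, bases 2 to 8, is in capitals.
miR-21a-5p: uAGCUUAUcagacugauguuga
The transcript pairs with this seed through ATAAGCT. Taking for each gene the longest 3′ UTR in the annotation, 0 of the 45 keratins with a 3′ UTR held ATAAGCT, against 6.27% of 18775 named genes. Keratin 3′ UTRs are short, with a median of 343 nt against 920 nt. Krt18 has 65 nt and Krt19 103 nt, and Krt7 and Krt80 have the longest, 2648 nt each. The row of the targeted gene, which it shares with its host Vmp1, was at 42.5 FPKM in WT and 68.2 FPKM in KO tissue. Poly(A) RNA measures the host transcript and not the mature microRNA, so this value checks no label.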

How the data were processed

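Mammary tissue RNA of 2 miR-21+/+ and 2 miR-21-/- mice had been sequenced from a single end. The authors used TopHat with mm9 and Cufflinks for the FPKM values. The annotation, normalization options and versions are not given in the sources used here. The deposited table gives 1 FPKM value per genotype that combines its 2 mice, and both FPKM columns were used as deposited, the authors' own values. Its columns of fold change, test statistic, p-value, q-value and significance hold the authors' comparison and were not used. Its status column was not used either. No test was made, since no value per mouse was used, and depth is unknown.

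Log2 ratios had no pseudocount. Rows with a mean of at least 1 FPKM were described as expressed, and the background was the 13305 named rows above that limit. Keratin names, classes, marker lists and folds were chosen with earlier results of these data known. Simple keratins were Krt7, Krt8, Krt18, Krt19 and Krt20, and basal keratins Krt5, Krt14, Krt15 and Krt17. Every expressed keratin is named, and of the 6 lists of epithelium, skin, hair and keratin partners the leading genes, while lists of other tissues are given by counts and sums. Members that make up a count of 5 or fewer were named after their values were seen, and other genes so named are marked. The 1-based coordinates given add 1 to the start in the table, since 7398 annotated gene starts matched after that and 424 without it. Alternatives were pseudocounts of 1 and 0.1, limits of 0 and 5 FPKM, 3 scalings, other folds and other keratin lists. A log2 value was taken as moved when it differed by over 0.1, and a count by over 1.5 times. Ratios and the seed search were tested on simulated data. Python 3.11.15, numpy 2.4.6, pandas 2.3.3 and matplotlib 3.10.9 were used.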

Additional observations from a re-analysis of the deposited data

How the results depend on the processing

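No paired analysis was possible because mice of a genotype share 1 value, so no replicate block was fitted and no mouse could be left out. Precision is limited by the unknown depth and by the missing spread between mice, most of all below 1 FPKM. Scaling to equal sums over all loci turned the median log2 ratio of the simple keratins from 0.58 to -0.046 and that of the basal keratins from 0.51 to -0.12, and Krt7 from 0.62 to -0.0073, through the common shift of -0.63. It left 0 expressed keratin rows higher and 4 lower at 1.5-fold, against 0.977% and 64.7% of named rows. Scaling to equal sums over named loci gave 8 higher rows in place of 4, against 6.71% of named rows, since 4 rows lie just under 1.5-fold. At a log2 ratio of 0.32 or more in size 8 rows were higher and 4 lower, and at 2-fold 1 was higher. With no minimum 13 of 35 rows were higher and 7 lower, against 9.65% and 10.6% of named rows. With a minimum of 5 FPKM 0 of 9 rows were lower, against 3.74%. With Krt5 and the Krt14 row as basal list the basal median was 0.64 and the difference from the simple keratins -0.055. The simple to basal ratio was 10.2 in both genotypes without merged rows, which removes Krt14, and 5.08 in WT and 5.07 in KO tissue for Krt8 and Krt18 over Krt5 and the Krt14 row. Every 8mer site holds ATAAGCT, so with 8mer sites only the count of keratins with a seed match could only be 0. Matches to a part of the seed were not searched. Pseudocounts of 1 and 0.1 changed no sign among the 15 expressed rows. The first moved 6 log2 ratios by over 0.1. Among these were Krt77, from -4.91 to -1.74, Krt10, from -1.53 to -1.17, and Krt23, from 1.20 to 1.02. The second moved 1, that of Krt77, to -3.86.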

Other observations

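Keratin names with a letter suffix and keratin-associated proteins, which were no members, were low as well. Krt6b, a keratin of stressed epidermis and hair follicle, was at 0.325 FPKM in WT and 0.354 FPKM in KO tissue, and Krt33a and Krt33b, keratins of the hair shaft, were under 0.02 FPKM in both. The table holds 51 rows of keratin-associated proteins, the matrix of the hair shaft, and 45 of them were listed at 0 in both genotypes. The highest value among the rest was 0.116 FPKM. Hair keratins below 1 FPKM had values in both orders. Krt71 of the inner root sheath was at 0.0358 FPKM in WT and 0.332 FPKM in KO tissue, and Krt83 of the hair shaft at 0.107 and 0.339 FPKM. Krt75 of the companion layer was at 0.0403 and 0.0238 FPKM, and Krt34 of the hair shaft at 0.0128 and 0.0080 FPKM. These genes were picked after their values were seen, and their even split is not that of all such rows. Summed over the inner root sheath and companion layer rows, the FPKM was 0.253 in WT and 0.558 in KO tissue. The reads behind these values are unknown.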
